A study of Zea mays with 6 samples.

Results

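The 135 genes described here are the proteasome subunits and autophagy genes of maize (Zea mays) leaf, taken as every row, of 45953 in all, whose gene name or description holds the word proteasome or autophagy. They comprise 38 genes of the proteasome core, 42 of the regulatory particle, 49 autophagy genes and 6 other proteasome-related genes. Of these, 41 carry a gene name of their own and 94 are listed by identifier only. No member passed the test for a difference between the groups, and the autophagy genes, led by the ATG8 family, lay mostly on the lower side in LW when libraries were scaled by TMM.

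Leaf RNA was sequenced in 6 libraries, 3 of each group. LW plants were kept under drought and watered continuously by negative pressure irrigation, in which water enters the soil at below atmospheric pressure. CW plants grew in moist soil under drip irrigation, so soil water and irrigation method differ together and cannot be told apart. The labels give no genotype, age or time point for either group, and nothing says that the libraries come from separate plants, so p-values speak only of the scatter among these libraries, and that scatter may be technical.

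The proteasome degrades proteins tagged with ubiquitin. Its core is a barrel of alpha and beta rings, with the cutting sites on beta subunits, and its regulatory particle binds, unfolds and feeds in the substrate through a base with ATPases (RPT) and a lid (RPN). Autophagy encloses cell material in a double membrane and delivers it to the vacuole; ATG1 kinase complexes start it, ATG9, ATG2 and ATG18 bring membrane, conjugating enzymes attach ATG8 to lipid, and ATG8 coats the growing membrane. In plants it is known for recycling leaf proteins and chloroplast material during starvation and senescence.

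FPKM counts fragments per kilobase of transcript, scaled to library size. Levels below are scaled FPKM, the deposited FPKM multiplied by 1 factor per library, which puts them on the scale of the test and lets genes be compared per length. The test was edgeR's quasi-likelihood test on the estimated counts with Benjamini-Hochberg adjustment over 24704 genes, called at an adjusted p under 0.05. Estimated counts summed to 42927751 to 64067543 per CW library and 62327457 to 84084375 per LW library. Fold changes are log2, LW minus CW. In a bulk leaf sample, fewer cells of a type and less RNA per cell cannot be told apart.

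Of the 135 members, 115 passed the filter on low counts, and 0 of these were called in either direction. Over all genes tested, 2.84% were called higher in LW and 2.40% lower, 5.23% in all. The fold change was negative for 47.4% of all genes tested, 47.1% of core, 33.3% of regulatory and 76.9% of autophagy genes. At an unadjusted p under 0.05, 5 members were higher and 12 lower, against 13.3% and 11.4% of all genes. DESeq2, which called 9.48% of all genes higher and 7.61% lower, called 10 members, named below with their classes. The lack of calls does not show equal levels: the 95% interval of the log2 fold change lay within 2-fold either way for 19 of 34 core genes, 17 of 36 regulatory genes and 13 of 39 autophagy genes tested, beside 14.9% of all genes. The smallest adjusted p was 0.0808 in the core, 0.111 in the regulatory particle and 0.0654 in autophagy.

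**Figure D1:**
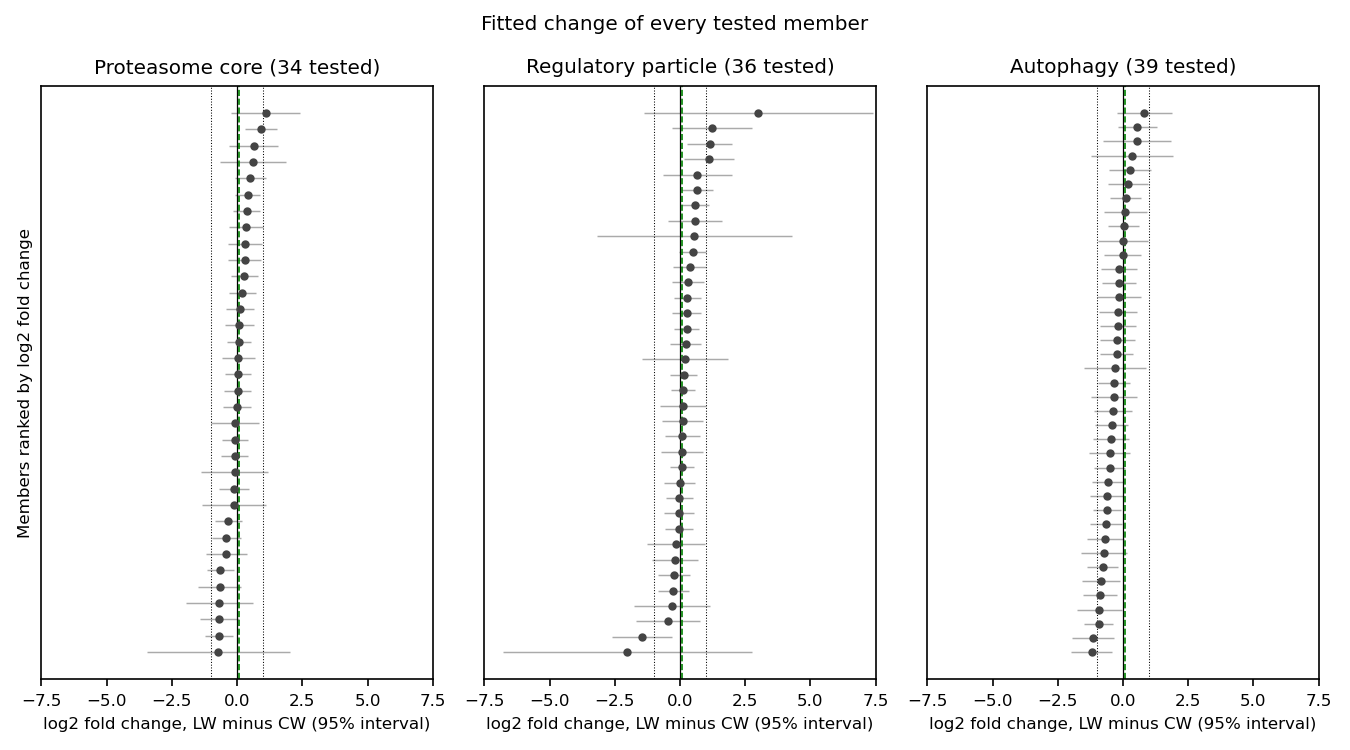
Fitted log2 fold change (LW minus CW, x axis) of each tested member, ranked within the core, the regulatory particle and autophagy, with 95% intervals; the green dashed line is the median of all genes tested (0.06) and dotted lines mark 2-fold. Core points sit on both sides of 0, 24 of 36 regulatory points lie above 0 and 30 of 39 autophagy points lie below it. Of all genes tested, 47.4% lie below 0.

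The class medians depend on the scale. With TMM factors the median log2 fold change of all genes was 0.06, and with libraries scaled by their totals it was 0.42, a shift of 0.36. The median of the core was 0.03 with TMM and 0.38 with totals, that of the regulatory particle 0.13 and 0.49, and that of autophagy -0.35 and 0.00. Relative to the median of all genes, the core stood at -0.04 on either scale, the regulatory particle at 0.07 and autophagy at -0.42.

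In the proteasome core, 34 of 38 genes were tested and 18 had a positive fold change, with 47.1% negative against 47.4% of all genes. The summed level of all core genes was 935 ± 56.2 in CW and 925 ± 9.47 scaled FPKM in LW (SD, n = 3 each). The same sum over all features was 727620 ± 23095 and 522860 ± 53305. All 3 LW libraries lay above all 3 CW libraries for 5 core genes and below them for 3, which is 14.7% and 8.82% of those tested, against 19.7% and 14.9% of all genes. On deposited FPKM the counts were 18 above and 0 below, against 29.6% and 7.77% of all genes.

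Among the alpha subunits, which form the outer rings and the gate, 13 of 19 tested genes had a positive fold change. The negative share was 31.6%, against 47.4% of all genes. The annotation gives no type for 9 core genes, so the copies and sums of a subunit cover only genes annotated with its type. A pair of genes of similar level is annotated as PAC. Zm00001d045194 (chr9:15741242-15741994, plus strand) had 14.5, 16.6 and 19.7 scaled FPKM in CW and 26.7, 37.2 and 32.7 in LW, and the groups did not overlap. Its log2 fold change was 0.92 ± 0.26 (SE) with an adjusted p of 0.0808, the smallest in the core. DESeq2, edgeR with totals and limma on log2(FPKM + 1) each called it higher, with adjusted p of 0.0145, 0.0438 and 0.0279, where these fits called 9.48%, 5.77% and 12.7% of all genes higher. Its partner Zm00001d036319, named proteasome component1, had 15.1, 16.1 and 18.8 in CW and 21.1, 26.4 and 24.1 in LW, again without overlap, with a log2 fold change of 0.52 and an adjusted p of 0.252. Summed over the pair, PAC was at 33.6 ± 4.55 in CW and 56.0 ± 7.97 scaled FPKM in LW.

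The sole gene annotated as PAF, Zm00001d015180, had 46.3, 41.0 and 49.1 scaled FPKM in CW and 63.9, 56.8 and 59.5 in LW. Its groups do not overlap, and its adjusted p was 0.283. Of the PAD genes, Zm00001d006235 also had every LW library above every CW library, at 23.8 to 28.8 against 18.6 to 23.5 scaled FPKM. The largest positive fold change of the core belonged to the minor PAA copy Zm00001d022131, which had 2.13, 2.63 and 0.578 in CW and 4.17, 2.79 and 4.49 in LW. The fitted log2 fold change of 1.10 has an interval from -0.23 to 2.42, with an adjusted p of 0.284. The major PAA copy Zm00001d048271 gave 89.8% of the PAA level and stood at 21.8 to 25.8 in CW and 22.9 to 26.9 in LW, groups that overlap.

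Other alpha genes lay lower in LW. Zm00001d022316, an alpha gene whose type the annotation leaves unnamed, had 79.2, 74.3 and 61.6 scaled FPKM in CW and 43.1, 50.6 and 44.9 in LW. Zm00001d007038, a PAG copy, had 7.86, 9.60 and 9.33 in CW and 5.47, 4.75 and 6.31 in LW. Neither gene's groups overlapped on this scale, both overlapped on deposited FPKM, and their log2 fold changes were -0.63 and -0.70 with adjusted p of 0.129 and 0.109. DESeq2 called both lower, with adjusted p of 0.0482 and 0.0454. The other 2 PAG copies had positive fold changes of 0.30 and 0.64, so the PAG sum was 19.2 ± 2.52 in CW and 19 ± 0.932 in LW. The highest alpha gene, Zm00001d027896, had 72.1, 66.1 and 66.9 in CW and 89.1, 70.1 and 90.9 in LW, with an adjusted p of 0.474.

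All 4 PAB genes had a negative fold change, and 1 of them, Zm00001d017336, varied 24.7-fold between CW libraries and 12.6-fold between LW libraries. On chromosome 5 lie 3 of them, Zm00001d017336, Zm00001d017338 and Zm00001d017340, with gaps of 51.7 and 59.9 kb, and each overlaps an annotated gene on the opposite strand. Since the counting is not stated to use strand, their reads and those of the overlapping genes cannot be told apart, and reads shared among near copies may have been split. Zm00001d017336, the largest negative fold change of the core, had 27.5, 32.6 and 1.32 scaled FPKM in CW and 28.3, 6.94 and 2.24 in LW. The high and low libraries fall in both groups, and the log2 fold change of -0.71 has an interval from -3.46 to 2.04. Zm00001d051211, the PAB gene on chromosome 4, was steadier, at 18.2, 20.7 and 18.9 in CW and 17.1, 13.7 and 15.2 in LW, with an adjusted p of 0.413.

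Of 14 beta subunit genes tested, 5 had a positive fold change, with 64.3% negative against 47.4% of all genes. With TMM, all LW libraries lay above all CW libraries for 0 of them and below for 0, against 19.7% and 14.9% of all genes. On deposited FPKM the counts were 6 above and 0 below, against 29.6% and 7.77% of all genes. The interval lay within 2-fold for 10 of the 14, against 14.9% of all genes. PBE is the subunit with the chymotrypsin-like cutting site. Its gene Zm00001d045315 (chr9:18806523-18809336, plus strand), the highest core gene, had 108, 84.3 and 84.2 scaled FPKM in CW and 96.8, 88.0 and 90.9 in LW. On the log2 scale it differed by 0.00, with an interval from -0.53 to 0.52 on the TMM scale, and 0.35 with totals. The beta gene Zm00001d033596, of unnamed type and next in level, had 79.6, 77.4 and 57.8 in CW and 58.4, 50.5 and 53.5 in LW, with a log2 fold change of -0.40 and an adjusted p of 0.326. PBB carries the trypsin-like site. The sole gene annotated as PBB was low and scattered, at 12.1, 5.88 and 5.42 in CW and 3.20, 12.6 and 6.10 in LW. The type of 4 beta genes is not given, so further PBB copies may be among them. PBA, which carries the caspase-like site, summed to 43.7 ± 7.08 in CW and 42.7 ± 6.31 in LW. The core gene named proteasome component2, whose ring is not given, had 37.5, 31.7 and 18.5 in CW and 18.9, 19.5 and 16.1 in LW, with an adjusted p of 0.236.

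**Figure D2:**
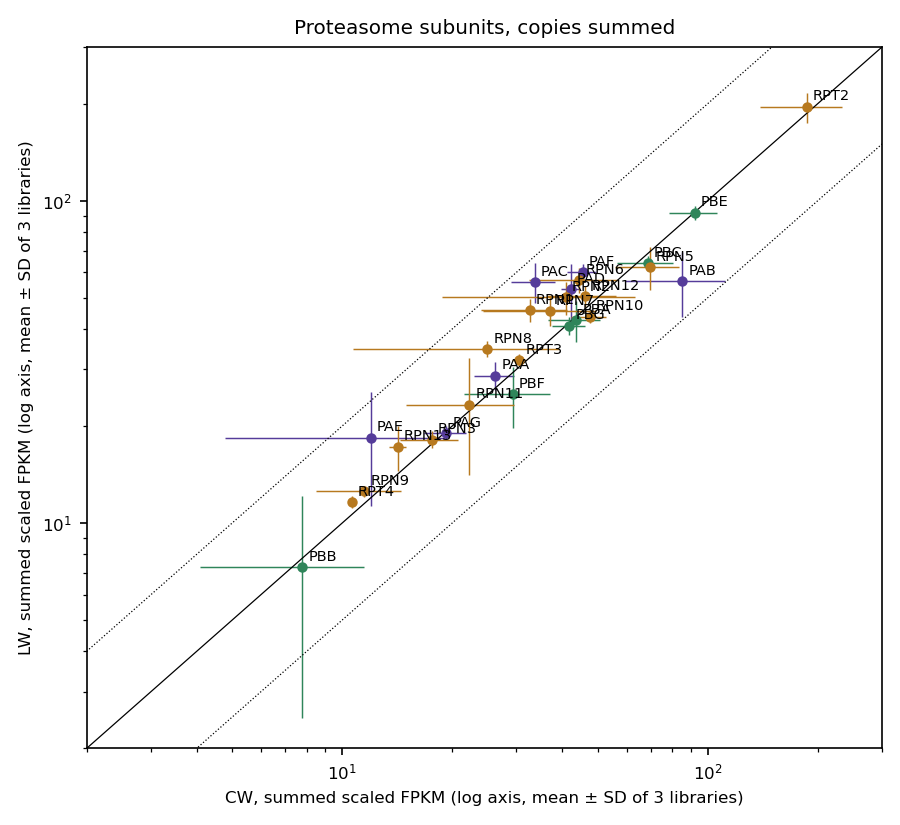
Summed scaled FPKM of each named proteasome subunit in CW (x) and LW (y), copies added, as mean ± SD of 3 libraries on log axes; purple marks alpha, green beta and brown regulatory subunits, the solid line is equality and the dotted lines are 2-fold. All subunits lie between the dotted lines, with PAC at 33.6 and 56.0 and PAB at 85.4 and 56.4.

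In the regulatory particle, 36 of 42 genes were tested and 24 had a positive fold change, with 33.3% negative against 47.4% of all genes. At an unadjusted p under 0.05, 4 were higher and 1 lower, 13.9% in all, against 24.7% of all genes. All LW libraries lay above all CW libraries for 7 genes (19.4%, against 19.7% of all genes) and below them for 0. On deposited FPKM the counts were 15 above and 0 below, against 29.6% and 7.77% of all genes. The summed level was 645 ± 120 scaled FPKM in CW and 709 ± 17.2 in LW. The CW libraries spread more than the LW libraries: the median ratio of the highest to the lowest library was 1.63 within CW and 1.22 within LW, and CW replicate 2 stood lowest, with a median deviation of -0.34 on the log2 scale.

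RPN2 and RPN1 form the scaffold of the base and dock ubiquitin receptors. RPN2 has 4 genes, and 3 of them were higher at an unadjusted p under 0.05, against 13.3% of all genes. Zm00001d002373 (chr2:11329158-11336582, plus strand) had 3.46, 2.82 and 2.88 scaled FPKM in CW and 3.90, 10.0 and 6.19 in LW, with a log2 fold change of 1.14 ± 0.37 (SE) and an adjusted p of 0.111. Zm00001d049357 had 3.37, 2.21 and 6.17 in CW and 7.03, 10.7 and 7.67 in LW, with a log2 fold change of 1.11 and an adjusted p of 0.151. Zm00001d026265 had 6.79, 5.89 and 8.56 in CW and 10.5, 10.7 and 10.6 in LW, with a log2 fold change of 0.58 and an adjusted p of 0.172. In none of these did the groups overlap, also on deposited FPKM. Of all genes, 19.7% lay wholly above with TMM and 29.6% on deposited FPKM. DESeq2 called Zm00001d002373 higher with an adjusted p of 0.0433, and edgeR without CW replicate 3 called Zm00001d049357 with an adjusted p of 0.0379, where 6.79% of all genes were called higher.

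The RPN2 gene with the highest level, Zm00001d024342, had overlapping groups. It gave 56.3% of the RPN2 level, with 19, 13.2 and 48.5 scaled FPKM in CW and 27.1, 25.4 and 20.6 in LW. CW replicate 3 was above every LW library and the other CW libraries below them, and the log2 fold change was -0.14 with an adjusted p of 0.885. Summed over its 4 genes, RPN2 was at 40.9 ± 22.2 in CW and 50.1 ± 5.98 in LW. The major RPN1 gene Zm00001d053881 had 19.6, 17.3 and 27.9 in CW and 33.0, 36.8 and 32.1 in LW without overlap, with a log2 fold change of 0.65 and an adjusted p of 0.172. Limma on log2(FPKM + 1), which called 12.7% of all genes higher, gave it an adjusted p of 0.0497. The second RPN1 gene, Zm00001d015259, had overlapping groups at 6.27 to 14.0 and 10.6 to 13.1.

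**Figure D3:**
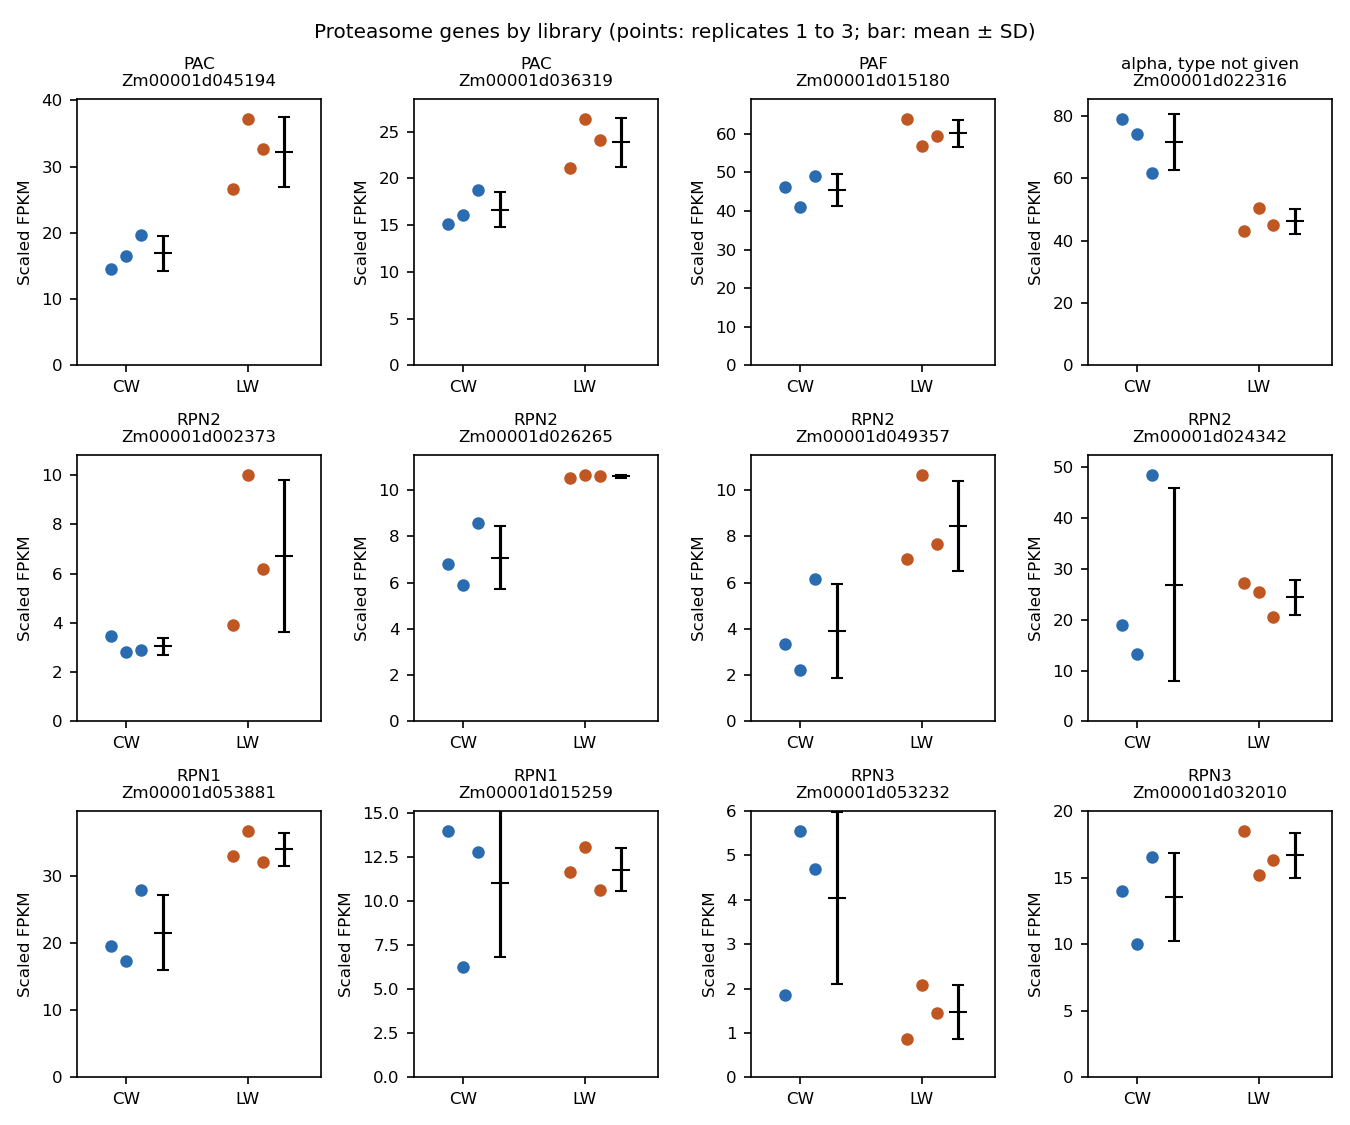
Scaled FPKM (y axis, from 0) by library in CW and LW of 12 proteasome genes, with points for replicates 1 to 3 and the mean ± SD beside them. The PAC pair, PAF, 3 RPN2 genes and 1 RPN1 gene have all LW points above all CW points, Zm00001d022316 has them below, and the RPN2 gene Zm00001d024342 has its highest point, 48.5, in CW.

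The ATPases of the base, which unfold the substrate, had 5 tested genes. The intervals of all 5 lay within 2-fold, against 14.9% of all genes. All LW libraries lay above all CW libraries for 2 of the 5 with TMM, against 19.7% of all genes. On deposited FPKM this held for 3, against 29.6% of all genes. RPT2 opens the gate of the core. Its main gene Zm00001d007215, the highest of the regulatory particle, had 107, 80.4 and 182 scaled FPKM in CW and 146, 111 and 132 in LW, with CW holding both the highest and the lowest library. The log2 fold change was 0.07 with an adjusted p of 0.925, and -0.16 without CW replicate 2. The second RPT2 gene Zm00001d022573 had 48.8, 39.7 and 33.5 in CW and 40.4, 38.2 and 39.3 in LW, with an adjusted p of 0.920. RPT3 stood at 30.5 ± 1.32 in CW and 32.0 ± 1.41 in LW, and RPT4, named proteasome component4, at 10.6 ± 0.181 and 11.6 ± 0.503.

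The lid had 19 tested genes, of which 12 had a positive fold change, with 36.8% negative against 47.4% of all genes. RPN11, which removes ubiquitin chains from the substrate, was uneven between libraries: Zm00001d040334 had 26.5, 4.10 and 9.40 scaled FPKM in CW and 8.58, 11.5 and 25.8 in LW. RPN5, a lid scaffold, had its main gene Zm00001d012844 at 53.4, 41.2 and 60.3 in CW and 53.5, 38.0 and 41.7 in LW, with a log2 fold change of -0.22 and an adjusted p of 0.655. The minor RPN3 gene Zm00001d053232 had 1.86, 5.56 and 4.70 in CW and 0.860, 2.08 and 1.46 in LW. Its log2 fold change was -1.46 ± 0.49 (SE) with an adjusted p of 0.123 in edgeR and 0.0420 in DESeq2, and CW replicate 1 lay within the LW range. The major RPN3 gene Zm00001d032010, with 84.6% of the RPN3 level, had 14.0, 10.1 and 16.6 in CW and 18.6, 15.2 and 16.3 in LW. RPN6, a clamp between lid and core, has a pair of genes 68.6 kb apart on chromosome 2, Zm00001d003566 and Zm00001d003567, both with overlapping groups and log2 fold changes of 0.14 and 0.26.

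RPN10, a ubiquitin receptor, holds both extremes of the regulatory particle, and both are near the detection limit. Zm00001d040834 had 0, 0 and 0.513 scaled FPKM in CW and 0.344, 2.60 and 1.35 in LW, and Zm00001d030290 had 0.631, 0.269 and 0 in CW and 0, 0.149 and 0.0616 in LW. Their fitted log2 fold changes of 3.00 and -2.02 have intervals from -1.38 to 7.38 and from -6.78 to 2.75. The main RPN10 gene Zm00001d047941 had 35.0, 21.6 and 30.9 in CW and 25.4, 24.4 and 23.7 in LW. PSMD9, an assembly chaperone of the base, had 8.99, 5.30 and 9.79 in CW and 12.1, 6.67 and 7.37 in LW.

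Of the 6 other proteasome-related genes, 0 were called by edgeR and 0 had an unadjusted p under 0.05, against 5.23% and 24.7% of all genes. With TMM, all LW libraries lay above all CW libraries for 2 and below for 0, against 19.7% and 14.9% of all genes. On deposited FPKM the counts were 4 above, PA200 among them, and 0 below, against 29.6% and 7.77% of all genes. The activator PA200, which caps the core in place of the regulatory particle, had 6.49, 5.58 and 8.90 scaled FPKM in CW and 9.82, 18.4 and 7.33 in LW, and its gene overlaps another annotated gene. The proteasome inhibitor gene had 25.5, 16.6 and 23.5 in CW and 29.0, 28.1 and 28.7 in LW without overlap, with an adjusted p of 0.373. The pair of UMP1 assembly factors stood at 25.9, 25.9 and 27.9 against 27.0, 21.7 and 22.8, and at 25.4, 8.45 and 12.6 against 10.4, 10.5 and 9.50. The remaining pair carry GO terms of translation initiation and of peptide transport, so their place among proteasome genes rests on the wording of the table.

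Among the autophagy genes, 39 of 49 were tested and 30 had a negative fold change (76.9%, against 47.4% of all genes). EdgeR called 0 in either direction. At an unadjusted p under 0.05, 0 were higher and 9 lower, which is 23.1% of those tested, against 11.4% of all genes lower. All LW libraries lay below all CW libraries for 13 genes (33.3%, against 14.9% of all genes) and above them for 0. On deposited FPKM only 3 lay below and 2 above, against 7.77% and 29.6% of all genes. On that scale 19 of 39 had a higher mean in LW, beside 16827 of the 24704 genes tested. DESeq2 called 5 lower and limma on log2(FPKM + 1) called 0, where they called 7.61% and 3.17% of all genes lower. The summed level was 1018 ± 80.3 scaled FPKM in CW and 611 ± 120 in LW. The same sum over all features was 727620 ± 23095 in CW and 522860 ± 53305 in LW.

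The ATG8 family made up most of that sum, from 64.3% to 68.7% in the CW libraries and 51.9% to 62.2% in the LW libraries. Its summed level was 670 ± 52.6 scaled FPKM in CW and 348 ± 103 in LW. The other autophagy genes together were at 347 ± 40.8 in CW and 262 ± 17.6 in LW. As a share of all counts, the ATG8 genes took 0.0686% ± 0.00713 in CW and 0.0449% ± 0.0102 in LW. The other autophagy genes took 0.0993% ± 0.0132 in CW and 0.0941% ± 0.00538 in LW. All 5 tested ATG8 genes had a negative fold change, against 47.4% of all genes. In 4 of them all LW libraries lay below all CW libraries, against 14.9% of all genes. On deposited FPKM this held for 2, against 7.77% of all genes. With libraries scaled by totals the sign stayed negative for the 3 ATG8 genes of highest level, at -0.86, -0.29 and -0.82.

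Autophagy8e (Zm00001d049405, chr4:29550441-29552705, minus strand) was the highest autophagy gene and had the largest negative fold change. It had 264, 178 and 302 scaled FPKM in CW and 147, 97.7 and 79.5 in LW, a log2 fold change of -1.20 ± 0.34 (SE) with an adjusted p of 0.0809. Autophagy8d (Zm00001d024239, chr10:59002720-59005171, plus strand) had 158, 140 and 151 in CW and 103, 47.2 and 52.5 in LW, with a log2 fold change of -1.15 ± 0.34 and an adjusted p of 0.0919. In both genes LW replicate 1 was the closest to CW. Autophagy8c (Zm00001d002257, chr2:9067800-9076270, plus strand) had 41.3, 38.4 and 38.5 in CW and 25.4, 18.5 and 18.0 in LW. Its log2 fold change was -0.93 ± 0.23 with an adjusted p of 0.0654, the smallest of any member.

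Autophagy8a (Zm00001d006474, chr2:209341868-209344124, minus strand) had 195, 223 and 207 scaled FPKM in CW and 171, 123 and 108 in LW, with a log2 fold change of -0.64 and an adjusted p of 0.182. It overlaps Zm00001d001010 on the opposite strand, so its reads and those of that gene cannot be told apart. Autophagy8b (Zm00001d026335, chr10:143747463-143750718, minus strand) was the one with overlapping groups, at 23.9, 34.1 and 17.6 in CW and 18.8, 21.8 and 12.8 in LW. On deposited FPKM, autophagy8d and autophagy8c kept all LW libraries below all CW libraries. Autophagy8e did not, with its lowest CW library at 152 and its highest LW library at 154. Nor did autophagy8a, with its lowest CW library at 173 and its highest LW library at 179. DESeq2 called 8c, 8e and 8d lower, with adjusted p of 0.00429, 0.0121 and 0.0228. The sixth ATG8 gene, Zm00001d018568, had at most 61 estimated counts in a library and was not tested.

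**Figure D4:**
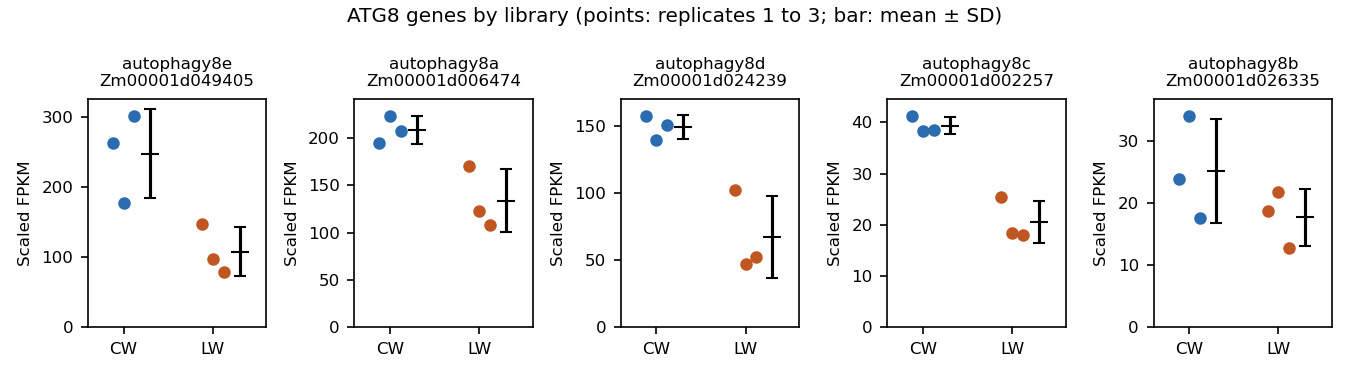
Scaled FPKM (y axis, from 0) by library of the 5 tested ATG8 genes in CW and LW, with points for replicates 1 to 3 and the mean ± SD beside them. In 8e, 8a, 8d and 8c every LW point lies below every CW point, and in 8b the groups overlap between 17.6 and 21.8.

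In the ATG1 kinase complex, which receives the starvation signal, all 4 ATG1 genes had a negative fold change. All 6 ATG13 genes, whose product binds ATG1, had overlapping groups with TMM, as had 16158 of the 24704 genes tested. Of the 6, 4 had a positive fold change. On deposited FPKM autophagy13a had all LW libraries above all CW libraries, as had 29.6% of all genes. Autophagy1t (Zm00001d026677) had 29.3, 33.0 and 46.6 scaled FPKM in CW and 20.9, 16.4 and 22.0 in LW, with a log2 fold change of -0.88 ± 0.27 (SE) and an adjusted p of 0.101. Its description in the table is a STY46 kinase, so its place among ATG1 genes rests on its name. DESeq2 gave it an adjusted p of 0.0325. Autophagy1b had 23.8, 39.2 and 25.9 in CW and 22.7, 20.8 and 9.88 in LW. Autophagy13a, the highest ATG13 gene, had 8.48, 8.26 and 4.93 in CW and 12, 8.14 and 11.7 in LW, and ATG13 summed to 25.4 ± 3.54 in CW and 31.0 ± 5.34 in LW. Autophagy101, a stabiliser of ATG13, had 31.1, 33.2 and 42.7 in CW and 21.1, 26.1 and 22.9 in LW, with an adjusted p of 0.160.

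Of the genes for membrane delivery, 10 of 11 tested had a negative fold change (90.9%, against 47.4% of all genes). ATG18 proteins bind the lipid made at the forming membrane, and all 8 tested ATG18 genes had a negative fold change. Of these, 3 were lower at an unadjusted p under 0.05, against 11.4% of all genes. Autophagy18d had 30.0, 30.7 and 46 scaled FPKM in CW and 26.4, 14.8 and 18.5 in LW, with a log2 fold change of -0.84 and an adjusted p of 0.149. Autophagy18a had 7.87, 12.2 and 9.58 in CW and 6.02, 5.97 and 5.30 in LW, with a log2 fold change of -0.78 and adjusted p of 0.110 in edgeR and 0.0490 in DESeq2. ATG18 summed to 87.5 ± 14.9 in CW and 58.8 ± 12.5 in LW. ATG9, the membrane protein that seeds the vesicle, was at 6.83 ± 1.36 and 6.95 ± 1.12.

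ATG6, part of the lipid kinase complex, has a pair of genes with fold changes of opposite sign. Autophagy6a had 22.0, 21.3 and 20.3 scaled FPKM in CW and 12.3, 18.8 and 8.86 in LW, with an adjusted p of 0.232, and it overlaps another gene on its own strand. Autophagy6b had the largest positive fold change of the autophagy genes, 0.82 on the log2 scale with an adjusted p of 0.305. It had 1.66, 1.05 and 2.48 in CW and 3.03, 4.10 and 2.07 in LW. Its groups overlapped on this scale, while on deposited FPKM all LW libraries lay above all CW libraries, as for 29.6% of all genes.

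Of 11 genes for conjugation enzymes 7 were tested, and 5 of these (71.4%, against 47.4% of all genes) had a negative fold change. The median of the 7 was -0.30 on the log2 scale, and 3 had an interval within 2-fold, against 14.9% of all genes. The median level of these 7 was 5.70 scaled FPKM, beside 4.55 for all genes tested, and their summed level was 47.2 ± 4.61 scaled FPKM in CW and 40.7 ± 1.92 in LW. Autophagy5, part of the complex that attaches ATG8 to lipid, had 9.34, 9.95 and 8.80 in CW and 8.11, 6.21 and 6.53 in LW, without overlap and with an adjusted p of 0.372. Autophagy7, the activating enzyme, was at 2.44 ± 0.964 and 2.59 ± 0.240. ATG3, the enzyme that hands ATG8 to lipid, is described by 4 genes. Of these, 3 had no count in any library and 1 had 123 estimated counts in LW replicate 2 alone. An ATG3 gene whose row lacks the word autophagy would not be counted here.

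In all, 20 members were not tested, and 15 of all 135 had no count in any library. Among the 20 the highest mean level was 0.621 scaled FPKM. Of the 135 genes, 11 overlap another annotated gene.

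Summed levels of leaf cell markers differed between the groups. The mesophyll list of 47 genes was taken by description words: phosphoenolpyruvate carboxylase, orthophosphate dikinase, carbonic anhydrase and chlorophyll a-b binding. It is not restricted to C4 isoforms. Of these genes 41 were tested, 12 were called lower and 0 higher, against 2.40% and 2.84% of all genes. Their summed level was 35668 to 48215 CPM (counts scaled to library size) in CW and 8095 to 13841 in LW. Still, 15 of the 41 had a positive fold change and 5 were higher at an unadjusted p under 0.05. Of 12 bundle sheath genes 7 were tested, 3 called lower and 0 higher, with sums of 7980 to 28279 and 1559 to 2572, and 2 were higher at an unadjusted p under 0.05. Senescence genes summed to 543 to 856 in CW and 235 to 316 in LW, with 1 of 9 called lower and 0 higher, while 5 of the 9 had a positive fold change, 1 was higher at an unadjusted p under 0.05 and the median log2 fold change was 0.02. Meristem and cell-cycle markers summed to 68.6 to 69.2 in CW and 88.1 to 112 in LW, with knotted1 at 0 in every library. Of 6 tested genes 0 were called by edgeR and 0 had an unadjusted p under 0.05, against 5.23% and 24.7% of all genes. All 6 had a positive fold change, where 47.4% of all genes had a negative one, and their median log2 fold change was 0.95. In 3 of the 6 (50.0%, against 19.7% of all genes) all LW libraries lay above all CW libraries. Root nitrate transporters summed to at most 0.271. The part of these shifts in the autophagy levels was not tested.

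Genes that act around the proteasome and autophagy but lie outside the word rule were taken from lists of descriptions. Over all these lists 3 of 238 tested genes rose and 2 fell, against 2.84% and 2.40% of all genes, and 43 (18.1%) had an unadjusted p under 0.05, against 24.7% of all genes. The 26S protease subunits, which are further RPT ATPases, had 0 of 8 tested genes called by edgeR and 0 at an unadjusted p under 0.05. Of the 8, 7 had an interval within 2-fold, against 14.9% of all genes. Among ubiquitin genes 1 of 2 rose: Zm00001d005334, a ubiquitin fused to ribosomal protein L40, had 18.8, 11.2 and 16.3 scaled FPKM in CW and 34.4, 44.9 and 49.4 in LW. Its log2 fold change was 1.48 ± 0.29 (SE) with an adjusted p of 0.0383, and it overlaps annotated small RNA genes on its strand. Of 66 ubiquitin-conjugating enzymes 0 rose and 1 fell, Zm00001d013092, with 22.1, 15.4 and 17.6 in CW and 8.93, 8.93 and 7.83 in LW and an adjusted p of 0.0446. With libraries scaled by totals its adjusted p was 0.0990. Both calls held without CW replicate 3, at 0.0411 and 0.0415, and were lost without any other library, at 0.0707 to 0.156 for Zm00001d005334 and 0.0866 to 0.184 for Zm00001d013092.

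CDC48 and its cofactors extract ubiquitin-tagged proteins for the proteasome. Of 33 tested genes 2 rose and 0 fell, against 2.84% and 2.40% of all genes. At an unadjusted p under 0.05, 8 were higher and 1 lower, against 13.3% and 11.4% of all genes. Zm00001d009359, of the UFD1 family, had 9.95, 7.75 and 6.70 scaled FPKM in CW and 15.7, 27.9 and 22.0 in LW, with a log2 fold change of 1.42 and an adjusted p of 0.0439. Zm00001d005727, a UBX domain protein, had 8.16, 3.48 and 3.59 in CW and 16.1, 18.8 and 19.1 in LW, with an adjusted p of 0.0457. Leaving out any library ended the call of Zm00001d009359, at 0.0527 to 0.162, and any but CW replicate 1 (0.0481) ended that of Zm00001d005727, at 0.0543 to 0.169. None of 6 ubiquitin-activating enzymes, 74 deubiquitinating enzymes, 9 shuttle receptors, 21 TOR or SnRK1 kinase genes, 1 class III lipid kinase gene and 6 further ATG-symbol genes was called by edgeR, and 1, 7, 4, 7, 0 and 1 of them had an unadjusted p under 0.05, against 24.7% of all genes.

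Of 12 vacuolar processing enzymes and metacaspases, proteases of the vacuole and of cell death, 1 fell and 0 rose, against 2.40% and 2.84% of all genes. The type II metacaspase Zm00001d010672 had 979, 1147 and 183 scaled FPKM in CW and 58.9, 47.3 and 74.3 in LW. Its log2 fold change was -3.68 ± 0.69 (SE) with an adjusted p of 0.0350, and CW replicate 3 stood far below the other CW libraries. Leaving out any library other than CW replicate 3 put the adjusted p of this gene between 0.0781 and 0.145, and without that replicate it was 0.0108.

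**Figure D5:**
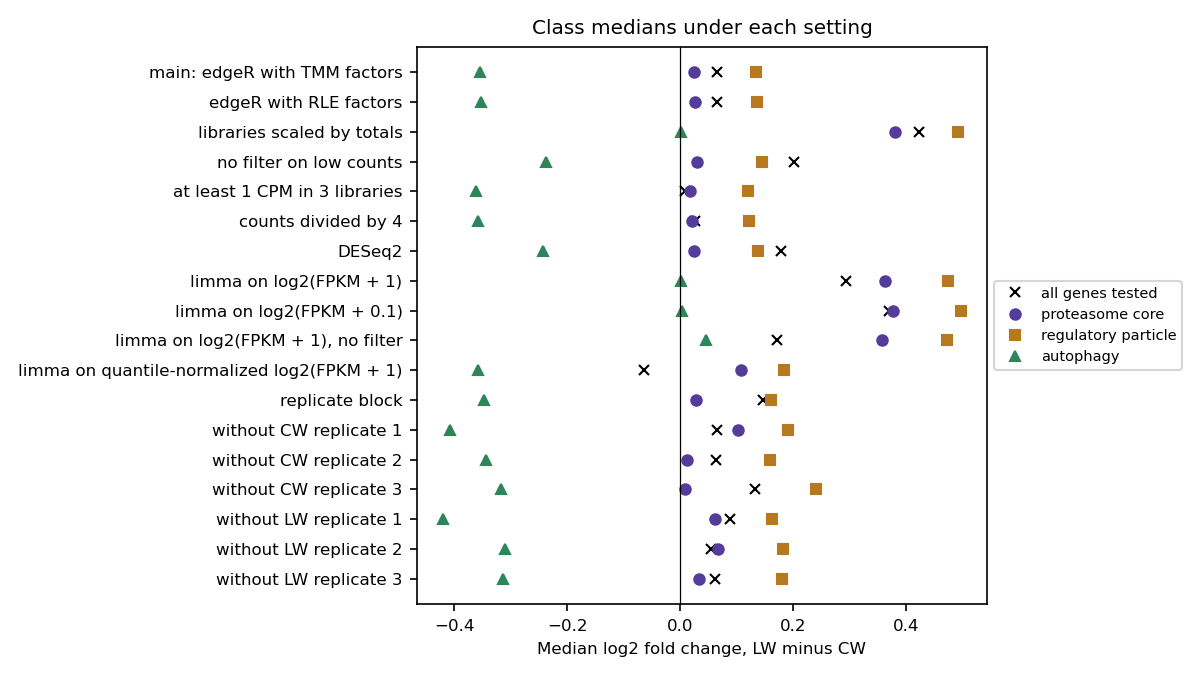
Median log2 fold change (x axis, LW minus CW) of all genes tested (crosses), core (circles), regulatory particle (squares) and autophagy (triangles) genes under each setting (y axis). Autophagy lies left of all genes in every row, at -0.35 against 0.06 with TMM factors and at 0.00 against 0.42 with libraries scaled by totals.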

How the data were processed

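Leaf poly(A) RNA of 3 LW and 3 CW libraries was measured. Per the submitters' processing notes the tools were FastQC 0.10.1, HISAT2 2.0, StringTie 1.3.4 and edgeR; their roles are not stated, nor are genome build and annotation, and coordinates are those of the deposited table. The authors deposited FPKM and whole-number counts per gene. The deposited counts were treated as estimated counts, since 29.7% of values from 1 to 40 are multiples of 4; FPKM was proportional to them. CW replicate 2 follows its title, because its source name carries number 3.

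Counts were tested with edgeR 4.0.16 (TMM factors, filterByExpr, quasi-likelihood, group only) under R 4.3.3, and the procedure was tested on simulated data. DESeq2 1.42.0, limma 3.58.1, other scalings and filters, a replicate block and leaving out each library were alternatives. Intervals are 95% from the fit. Arrangements of 3 against 3 libraries allow no exact p under 0.1, so none is given. Scaled FPKM is deposited FPKM times 1.13, 1.17 and 1.09 for CW and 0.956, 0.827 and 0.879 for LW. Same-numbered libraries did not deviate together (correlations -0.0352, -0.00209 and -0.251), so the main test did not pair them by number. With 3 libraries per group, deviations from the group mean cannot show that they were unpaired.

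Classes come from the table's descriptions and KEGG entries. The members and lists were chosen with earlier results of these data known. Genes named by rule were those called, the 3 of highest mean FPKM and the largest positive and negative fold change per class, and the called gene of lowest adjusted p per outside list; other named genes, such as PAC, RPN2 and Zm00001d005727, were chosen after their values were seen. Near-identical copies may share reads.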

Additional observations from a re-analysis of the deposited data

How the results depend on the processing

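Scaling moved the class medians; those of the core and the regulatory particle were positive in every setting, and that of autophagy ran from -0.42 to 0.0454. The core median was 0.38 with totals, 0.36, 0.38 and 0.36 with limma on log2(FPKM + 1), on log2(FPKM + 0.1) and without a filter, and 0.11 with limma on quantile-normalized values; the regulatory median was 0.49 with totals and 0.47, 0.50 and 0.47 in the first 3 limma fits; the autophagy median was 0.0015 with totals and 0.0011, 0.0037 and 0.0454 in them. Leaving out single libraries gave 0.0079 to 0.10 for the core, 0.16 to 0.24 for the regulatory particle and -0.42 to -0.31 for autophagy. The autophagy median minus that of all genes was negative in every setting, from -0.51 to -0.13.

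Core genes called higher were 1 with totals, 1 in DESeq2, 1 in limma with either pseudocount and 3 in limma without a filter, and 2 were lower in DESeq2. Regulatory genes called higher were 1 in DESeq2, 1 in limma on log2(FPKM + 1), 3 without a filter and 0 to 1 when a library was left out, and 1 was lower in DESeq2. Autophagy genes called lower were 5 in DESeq2.

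Over all genes, calls higher and lower were 701 and 592 as reported, 1425 and 346 with totals, 2551 and 2050 in DESeq2, and 1158 and 977 in limma on quantile-normalized values. Higher calls were 2497, 1761 and 1947 in limma on log2(FPKM + 1), on log2(FPKM + 0.1) and without a filter. Leaving out a library gave 0 to 1678 higher and 0 to 1287 lower. With the replicate number as a block, 2 genes were higher and 1 lower, and no member was called; the called genes outside the word rule then had adjusted p from 0.108 to 0.134.

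Fold changes near 0 changed sign. PBE Zm00001d045315 was at 0.35 with totals, 0.0053 without a filter on counts, 0.0001 in DESeq2, 0.35 in limma on log2(FPKM + 1), 0.35 with pseudocount 0.1, 0.35 without a filter, 0.20 on quantile-normalized values and 0.0047 with the replicate block, and ran from -0.0661 to 0.13 when a library was left out. RPT2 Zm00001d007215 ran from -0.16 to 0.47 when a library was left out. RPT2 Zm00001d022573 was at 0.31 with totals, 0.31, 0.32 and 0.31 in the 3 limma fits on FPKM and 0.0898 on quantile-normalized values, and ran from -0.17 to 0.10. RPN5 Zm00001d012844 was at 0.12 with totals and 0.13 in each of the 3 limma fits. The causes were not tested.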
